A study of Mus musculus with 144 samples.

Results

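Amino acid transporter genes are described here across the day in mouse liver. They are the 67 gene symbols, of 51912 in the authors' gene count table, that begin with Slc1a, Slc3a, Slc6a, Slc7a, Slc36a, Slc38a or Slc43a followed by a number. The rule reads the symbol alone, though the families were picked with earlier results of these data known. Of the 67, Slc7a6os, Slc6a19os, Slc36a1os and Slc36a3os are named for a neighbouring carrier and are not carriers themselves. The data are QuantSeq 3′ mRNA libraries, in which reads are meant to start near the poly(A) tail. A count is therefore taken here as a transcript end and is not divided by transcript length.

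The 144 libraries form 4 series of 36. Total liver RNA, RNA of isolated nuclei and RNA of polysomes came from wild-type C57BL/6J mice, and total liver RNA also from mice labelled Bmal1-/-, which lack by label the clock transcription factor encoded by Arntl. All mice were male and lived under equal light and dark phases of 12 h, eating and drinking at will. Their age is not given in the labels. A series has 6 times of day with 6 libraries each, written as ZT2, ZT6, ZT10, ZT14, ZT18 and ZT22 (zeitgeber time, hours after lights on). Nuclei were spun through a sucrose cushion, and polysomes were taken from a sucrose gradient after cycloheximide, which halts ribosomes on the mRNA. Nothing in the labels says that the 6 libraries of a group came from separate mice, so p-values measure the spread between libraries, which may be in part technical. The labels do not say which part of Bmal1 was removed, in which cells, or whether littermates served as controls.

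Amino acid carriers move amino acids across the plasma and lysosomal membranes, and each family prefers certain substrates and ions. The Slc38 family carries small neutral amino acids and glutamine with sodium. The Slc7 family carries cationic and large neutral amino acids, in part bound to the heavy chains of the Slc3 family, while the Slc1 and Slc6 families carry glutamate, neutral amino acids, glycine, taurine, betaine and GABA. The liver takes up amino acids from the portal blood after feeding for gluconeogenesis, urea and protein synthesis, and its hepatocytes divide glutamine and glutamate handling between the periportal and perivenous ends of the lobule.

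The counts in genes added up to 5316601 to 9831142 in wild-type total, 1662449 to 6620128 in nuclear, 2578048 to 13068044 in polysomal and 4379549 to 14281894 in Bmal1-/- total RNA. Arntl itself was counted at 6.73 ± 5.40 CPM (the gene's count scaled to the library's total gene count; SD, n = 36) in wild-type and 11.5 ± 2.98 CPM (n = 36) in Bmal1-/- total RNA. A 3′ tag outside a deleted part checks nothing, so the genotype is used here as labelled. In 4 libraries labelled male, all at ZT22, Xist was counted at 165 to 4363 CPM, against at most 5.67 CPM in any other library: wild-type total replicate 5, nuclear replicate 5, polysomal replicate 1 and Bmal1-/- replicate 6. The 6 polysomal libraries numbered 1 held lung epithelium markers at 59.7 to 968 CPM, summed over Scgb1a1, Sftpc, Sftpb, Sftpa1 and Scgb3a2. Over the polysomal series Scgb1a1 and Sftpc had the highest means of these, 38.2 and 20.4 CPM, and Sftpb had no count. Polysomal replicate 3 at ZT2 held exocrine pancreas markers at 2441 CPM, against a median of 25.5 CPM over the polysomal series. The next highest polysomal library held them at 837 CPM. Where leaving out the libraries with Xist counts or polysomal replicate 1 changed a count of called genes, it is given beside the result. Leaving out polysomal replicate 3 at ZT2 changed no count of called genes or sites in the 6 polysomal tests. The library at 837 CPM stayed in those fits and was not left out on its own.

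The liver transcripts of these genes were dominated by a few carriers. In wild-type total RNA 5 of the 67 reached 100 CPM, 10 lay between 10 and 100, 12 between 1 and 10, and 40 below 1 CPM. The 67 summed to 2131 CPM, of which the top 5 held 80.9%. Of those 40, 8 had no count in any of the 144 libraries, and 37 of the 67 stayed under 1 CPM in the mean of every series.

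The Slc38 family held 1237 CPM in wild-type total RNA, with 8 of its 11 members at 1 CPM or more. Its highest member was Slc38a4, a sodium-coupled carrier of neutral amino acids, at 793 ± 118 CPM (SD, n = 36). Slc38a3, which carries glutamine, histidine and asparagine, followed at 302 ± 119 CPM, and Slc38a2, the carrier known to be induced by amino acid shortage, at 70.8 ± 19.8 CPM. Slc38a10 stood at 47.3 ± 10.4 CPM, and the lysosomal carriers Slc38a7 and Slc38a9, the latter an arginine sensor for mTORC1, at 9.26 ± 2.37 CPM and 8.06 ± 1.56 CPM. The Slc7 family held 379 CPM, nearly all in Slc7a2, a carrier of arginine, lysine and ornithine, at 363 ± 182 CPM. Slc7a1 and Slc7a5, the cationic and large neutral carriers of many dividing cells, stayed at 0.952 ± 0.671 CPM and 0.227 ± 0.19 CPM. Because 3′ counts are not divided by length, these CPM values order transcript ends, and the order of neighbours such as Slc7a2 and Slc38a3 lies within their SD.

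The Slc6 family held 269 CPM over 22 members, of which 5 reached 1 CPM. Slc6a13, a GABA and taurine carrier, stood at 141 ± 26.3 CPM and Slc6a6, the taurine carrier, at 79 ± 18.6 CPM. Below them were Slc6a9, the glycine carrier, at 28.1 ± 9.32 CPM, and Slc6a12, the betaine and GABA carrier, at 18.7 ± 3.72 CPM. In the Slc1 family, at 132 CPM, the glutamate carrier Slc1a2 gave 125 ± 38.1 CPM and Slc1a4, a carrier of alanine, serine and cysteine, 4.62 ± 2.59 CPM. The heavy chains Slc3a2 and Slc3a1 gave 45.3 ± 8.42 CPM and 14.3 ± 5.86 CPM. Slc36a1, a proton-coupled carrier of the lysosome, gave 22 ± 5.23 CPM, and Slc43a3, a member of the Slc43 family known as a purine nucleobase carrier, 17.7 ± 4.09 CPM.

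The 250 bases before each listed start (promoter windows of RefSeq GRCm38.p6) were searched on both strands for the E-box CACGTG, the site of the CLOCK and BMAL1 pair, since the study compares mice with and without Bmal1. Of the 27 members at 1 CPM or more in wild-type total RNA, 20 had a window, 35 windows in all. The letters were found in 3 of the 35, 1 each of Slc36a1, Slc38a7 and Slc43a1, against 6.02% of all 32851 windows and 6.86% of the 27025 genes that have one. Of these 3 genes, Slc36a1 and Slc38a7 reached the 10-count mean in both genotypes, and they are shown with Slc1a2, in whose only listed window the letters were not found. The 250 bases before the start are printed 5′ to 3′ on the gene's strand, with the E-box in capitals. The lines are Slc36a1 at chr11:55204090-55204339 on the plus strand, Slc38a7 at chr8:95853492-95853741 on the minus strand and Slc1a2 at chr2:102706188-102706437 on the plus strand, the last of which lies inside the annotated gene, whose start is listed at 102658239.
Slc36a1: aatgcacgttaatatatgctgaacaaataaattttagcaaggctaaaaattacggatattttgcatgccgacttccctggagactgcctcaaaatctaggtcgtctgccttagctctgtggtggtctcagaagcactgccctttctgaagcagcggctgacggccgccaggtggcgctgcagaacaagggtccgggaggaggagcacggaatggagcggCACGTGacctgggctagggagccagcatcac
Slc38a7: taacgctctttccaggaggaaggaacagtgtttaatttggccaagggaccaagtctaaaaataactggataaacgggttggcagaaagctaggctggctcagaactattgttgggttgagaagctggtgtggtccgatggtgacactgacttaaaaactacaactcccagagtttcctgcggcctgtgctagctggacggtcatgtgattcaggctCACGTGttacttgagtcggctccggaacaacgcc
Slc1a2: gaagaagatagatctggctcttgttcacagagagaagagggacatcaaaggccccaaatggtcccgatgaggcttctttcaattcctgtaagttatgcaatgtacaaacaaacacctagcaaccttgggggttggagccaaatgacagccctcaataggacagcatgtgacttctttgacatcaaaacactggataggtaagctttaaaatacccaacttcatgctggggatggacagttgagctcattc
The E-box lies 31 bases upstream of the start in Slc36a1 and 34 bases upstream in Slc38a7. The D-box letters TTACGTAA (0.113% of all windows), TTATGTAA (0.819%) and the ROR response element (0.332%) were found in no window of these 20 genes, and the amino acid response core TGATGNAA (3.45%) in Slc7a7. A match of letters is a description of the window, not a binding site. At the RNA level, Slc36a1 fell in Bmal1-/- libraries, with the values given below, while Slc38a7 had a log2 ratio of -0.0025 (SE 0.080, adjusted p = 0.983). Slc1a2 fell as well, but its window does not show the bases before the annotated start of the gene. Any link between the letters and these levels was not tested.

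Rhythm was tested in each series with a cosine of 24 h (edgeR's quasi-likelihood test, Benjamini-Hochberg adjusted over all genes tested, threshold 0.05). In wild-type total RNA 8 of the 24 members with enough counts passed, against 18.9% of all genes tested. They were the glutamine carrier Slc38a3, the neutral carrier Slc38a2, the cationic carrier Slc7a2, the glutamate carrier Slc1a2, the glycine carrier Slc6a9, Slc43a3, Slc1a4 and Slc7a8, a light chain for neutral amino acids. Of these 8, 6 peaked between ZT8.9 and ZT15.0, in the later light phase or early dark, and Slc1a4 and Slc7a8 near lights on. In Bmal1-/- total RNA 0 of 26 members passed, against 0.00825% of all genes (1 of 12126). DESeq2 also called 0 there. In edgeR's test Slc1a4 alone, 1 of the 26, had an unadjusted p under 0.05.

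Slc38a3 had the clearest daily course. In wild-type total RNA its median (lowest to highest of 6 libraries) was 217 CPM (85.6 to 289) at ZT2, 334 (279 to 375) at ZT6, 459 (442 to 576) at ZT10, 372 (249 to 444) at ZT14, 227 (202 to 259) at ZT18 and 162 (142 to 394) at ZT22. All 6 libraries at ZT10 lay above all 6 at ZT2, ZT6, ZT18 and ZT22. The fitted peak-to-trough difference in log2 was 1.27 (SE 0.16) with the peak at ZT10.6 ± 0.5 h (adjusted p = 1.36e-06). In Bmal1-/- total RNA the same gene gave 210.1 CPM (189 to 244) at ZT2, 228 (198 to 244) at ZT6, 211 (191 to 236) at ZT10, 206 (197 to 238) at ZT14, 218 (165 to 252) at ZT18 and 204 (163 to 247) at ZT22. Those 36 libraries lay between 163 and 252 CPM, all below the lowest wild-type library at ZT10. The difference in rhythm between the genotypes, tested as an interaction, had a log2 size of 1.27 (SE 0.19, adjusted p = 7.37e-06).

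Slc7a2 followed a similar course with more spread. Its wild-type medians were 251 CPM (159 to 512) at ZT2, 409 (328 to 534) at ZT6, 596 (364 to 846) at ZT10, 284 (205 to 435) at ZT14, 213 (184 to 536) at ZT18 and 225 (98.3 to 654) at ZT22. In the Bmal1-/- libraries they were 203 CPM (131 to 287) at ZT2, 246 (104 to 345) at ZT6, 247 (160.1 to 383) at ZT10, 264 (172 to 339.6) at ZT14, 344 (242 to 419) at ZT18 and 252 (201 to 449) at ZT22. The wild-type libraries at ZT10 overlapped those of every other time, and replicate 5 was the highest wild-type library at ZT18. The wild-type rhythm was 1.02 (SE 0.28) with the peak at ZT8.9 ± 1.0 h (adjusted p = 0.015), and the rhythm difference 1.41 (SE 0.35, adjusted p = 0.0149). These 2 genes, Slc38a3 and Slc7a2, were the 2 of 25 members called for a rhythm difference, against 5.18% of all genes tested. The Slc7a2 calls were the less stable: without replicate 1, 4 or 6 the wild-type rhythm had adjusted p from 0.0579 to 0.0832, and without replicate 1, 2, 3, 4 or 6 the rhythm difference had adjusted p from 0.0518 to 0.0829.

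Slc38a2 reached its highest wild-type level at ZT10 as well. The wild-type libraries gave 50.5 CPM (38.5 to 67) at ZT2, 81.7 (67.3 to 90.4) at ZT6, 96.5 (90.2 to 105) at ZT10, 64.9 (47.6 to 90.3) at ZT14, 58 (49.6 to 117) at ZT18 and 61.1 (46.5 to 79.5) at ZT22. At ZT10 all 6 libraries lay within 90.2 to 105 CPM, above all those at ZT2 and ZT22. The Bmal1-/- libraries gave 58.7 CPM (50.6 to 121) at ZT2, 76.3 (45.1 to 111) at ZT6, 65.3 (52.5 to 91) at ZT10, 76.8 (60.6 to 86.3) at ZT14, 78.1 (55.5 to 126) at ZT18 and 76.2 (49.8 to 92.1) at ZT22. The wild-type rhythm was 0.55 (SE 0.16) with the peak at ZT10.9 ± 1.1 h (adjusted p = 0.0335) and the rhythm difference did not pass, at 0.62 (SE 0.25, adjusted p = 0.27). Leaving out replicate 1, 2, 3, 4 or 6 ended the call of the wild-type rhythm of Slc38a2, with adjusted p from 0.0654 to 0.108.

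Slc1a2 and Slc6a9 peaked later, around the change from light to dark. The glutamate carrier Slc1a2 gave 80.5 CPM (66.9 to 91.2) at ZT2, 130.3 (99.1 to 152) at ZT6, 146 (131 to 211) at ZT10, 169 (90.7 to 187) at ZT14, 143 (109 to 167) at ZT18 and 95.5 (53.4 to 122) at ZT22 in wild-type total RNA. No library at ZT10 was as low as the highest at ZT2 or ZT22, and its rhythm was 0.98 (SE 0.14) with the peak at ZT13.0 ± 0.5 h (adjusted p = 1.68e-05). In Bmal1-/- libraries it gave 97 CPM (48.6 to 103) at ZT2, 74.7 (55.8 to 131) at ZT6, 61.9 (28.3 to 183) at ZT10, 72.5 (43.9 to 148) at ZT14, 76.1 (21.9 to 152) at ZT18 and 67.1 (28.3 to 154) at ZT22 and overlapped the wild-type libraries at every time. The glycine carrier Slc6a9 gave 19.3 CPM (11.1 to 22.7) at ZT2, 24.5 (18.5 to 33.3) at ZT6, 29.6 (22.5 to 36.6) at ZT10, 37.9 (17.9 to 49.8) at ZT14, 31.1 (23.6 to 38.9) at ZT18 and 29 (11.8 to 43.5) at ZT22 in wild-type total RNA. In Bmal1-/- libraries it gave 14.4 CPM (9.82 to 27) at ZT2, 13 (8.42 to 21.9) at ZT6, 13.8 (9.15 to 20.8) at ZT10, 14.4 (11.7 to 21.9) at ZT14, 16 (11.3 to 21.1) at ZT18 and 17.1 (11.4 to 24.3) at ZT22. Most of its wild-type groups overlapped, although all libraries at ZT18 lay above all those at ZT2, and its rhythm was 0.84 (SE 0.18) with the peak at ZT15.0 ± 0.8 h (adjusted p = 0.0025). The rhythm differences did not pass, at 1.02 (SE 0.40, adjusted p = 0.269) for Slc1a2 and 0.93 (SE 0.27, adjusted p = 0.0627) for Slc6a9.

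Among the lower genes, Slc43a3 gave 15.2 CPM (14.4 to 19.3) at ZT2, 18.8 (14.3 to 21.8) at ZT6, 20.5 (18 to 23.3) at ZT10, 22.4 (17.6 to 23.2) at ZT14, 18.8 (12.8 to 23.4) at ZT18 and 12 (8.34 to 14.6) at ZT22 in wild-type total RNA. Its Bmal1-/- libraries gave 19.3 CPM (13.4 to 26.6) at ZT2, 21 (15.2 to 28.2) at ZT6, 19.9 (16.3 to 24.7) at ZT10, 21.1 (16.2 to 24.4) at ZT14, 22.6 (15.7 to 36) at ZT18 and 20.6 (10.8 to 25) at ZT22. Its wild-type rhythm was 0.63 (SE 0.14) with the peak at ZT11.7 ± 0.8 h (adjusted p = 0.00286), with all libraries at ZT22 below all those at ZT10 and ZT14. Slc1a4 ran the other way. Its wild-type libraries gave 5.71 CPM (4.27 to 9.97) at ZT2, 4.46 (2.88 to 5.75) at ZT6, 2.31 (1.34 to 3.9) at ZT10, 3.71 (1.88 to 12.4) at ZT14, 3.36 (1.89 to 4.64) at ZT18 and 5.88 (3.18 to 11.4) at ZT22, lowest at ZT10. The Bmal1-/- libraries gave 15.8 CPM (6.29 to 26.1) at ZT2, 12.2 (6.78 to 15.4) at ZT6, 10.2 (7.21 to 11.9) at ZT10, 10.4 (6.39 to 15.2) at ZT14, 7.6 (1.39 to 10.8) at ZT18 and 10.02 (7.63 to 12.9) at ZT22. The wild-type rhythm of Slc1a4 was 1.04 (SE 0.28) with the peak at ZT23.3 ± 1.1 h (adjusted p = 0.0211). Slc7a8, at 2.68 ± 1.38 CPM in wild-type total RNA, had a rhythm of 0.97 (SE 0.27) with the peak at ZT3.3 ± 1.0 h (adjusted p = 0.0236). Neither of these 2 held in all leave-one-out fits. Slc1a4 was lost without replicate 2, 3, 5 or 6 (adjusted p from 0.0591 to 0.176) and without the wild-type library with Xist counts (adjusted p = 0.0642), where 7 members passed, and Slc7a8 without replicate 2, 3 or 4 (adjusted p from 0.0525 to 0.125). The rhythm differences of Slc43a3, Slc1a4 and Slc7a8 had adjusted p of 0.265, 0.218 and 0.103.

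**Figure D1:**
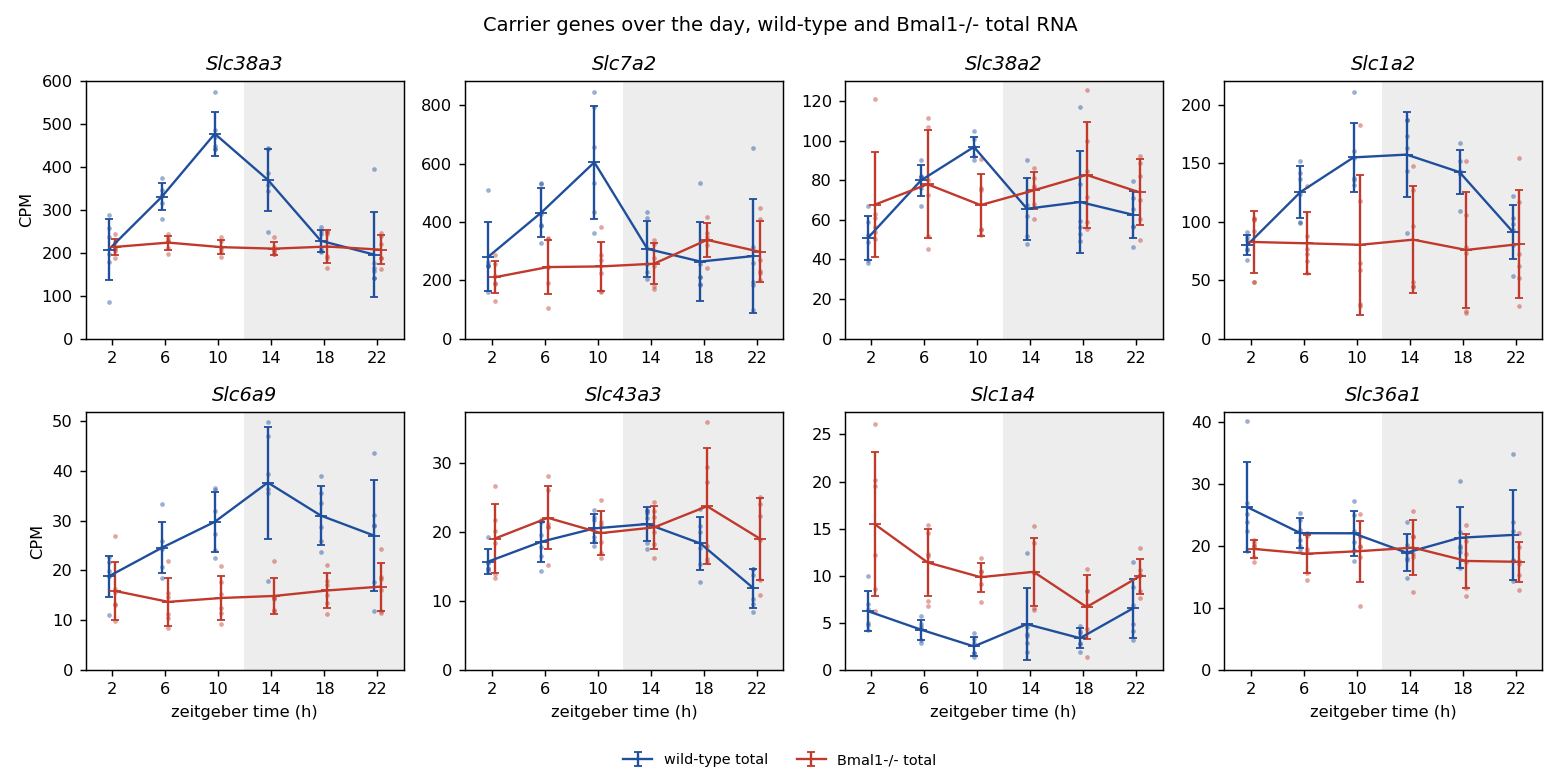
CPM of 8 carrier genes at 6 zeitgeber times (h; grey, dark phase) in wild-type (blue) and Bmal1-/- (red) total RNA, with 1 point per library, the mean as a bar and the SD as whiskers, n = 6. Slc38a3 rises to a wild-type median of 459 CPM at ZT10 while its 36 Bmal1-/- libraries stay within 163 to 252 CPM, and Slc1a4 is higher in the Bmal1-/- libraries at every time.

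Levels over the whole day were compared as the mean of the 6 time-point means. In Bmal1-/- against wild-type total RNA 12 of 25 members passed, near the 44.1% of all genes tested, with 6 higher (22.4% of all genes) and 6 lower (21.7%). Of the 6 higher, Slc7a4 reached the count minimum in Bmal1-/- libraries only. The median log2 ratio over the 25 was -0.0025, against 0.0051 over all genes tested. In whole liver RNA, fewer cells of a type and less RNA per cell cannot be told apart. The Bmal1-/- libraries differed in marker levels too, which were not tested as part of the differences below. The median sum of 5 hepatocyte markers was 68922 CPM in wild type and 54144 in Bmal1-/-. This difference lay mostly in Alb, while Apoa1 and Serpina1a had higher means in Bmal1-/- libraries. The hepatocyte sums were 75081 and 44938 CPM in replicates 1 to 3, but 65014 and 66226 CPM in replicates 4 to 6. The median sum of 5 periportal markers was 1444 and 1275. The sum of 5 perivenous markers was 4163 and 4776, and that of 5 cholangiocyte markers 25.7 (16.2 to 66.6) and 73.5 (45.8 to 136). In the last list the difference lay mostly in Sox9, while Krt19, Krt7 and Epcam stayed under 1 CPM in both genotypes. Of 5 exocrine pancreas markers, summing to 34.9 (15.0 to 94.8) and 103 (16.5 to 186), Cela1 made up nearly all, while Cpa1 was at 0 in both. The sum of 5 stellate cell markers was 323 and 378, that of 5 lymphocyte markers 20.2 and 11.7, and that of 5 adipocyte markers 19.6 and 10.3. In the adipocyte list the means differed mostly in Cfd, at 12.4 and 0.19 CPM. The sums of 5 Kupffer cell and 5 endothelial markers were 183 and 169, and 186 and 189.

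The glycine carrier Slc6a9 fell most among the 25. It averaged 28.1 ± 9.32 CPM in wild-type and 15.3 ± 4.36 CPM (SD, n = 36) in Bmal1-/- total RNA, with a log2 ratio of -0.95 (SE 0.097, adjusted p = 7.45e-13), and was lower at 6 of 6 times. Slc1a2 fell from 125 ± 38.1 CPM to 81 ± 40.9 CPM, a log2 ratio of -0.68 (SE 0.15, adjusted p = 8.79e-05). It was -0.38 (adjusted p = 0.0412) in replicates 1 to 3 and -1.17 in replicates 4 to 6, a difference that was not tested, with Bmal1-/- means of 123, 126, 68.9, 70.6, 57.2 and 40.3 CPM in replicates 1 to 6. Slc38a3 fell from 302 ± 119 CPM to 214 ± 23.4 CPM, a log2 ratio of -0.51 (SE 0.068, adjusted p = 2.97e-09). The fit gave lower values at 6 of 6 times, but at ZT22 only through wild-type replicate 5, a library with Xist counts. Without these libraries the log2 difference there was 0.33, and the Bmal1-/- median at ZT22 lay above the wild-type one. Slc7a2 fell from 363 ± 182 CPM to 266 ± 84.7 CPM, with -0.49 (SE 0.12, adjusted p = 6.73e-04). That call rested on replicates 4 to 6, since its log2 ratio was -0.04 (adjusted p = 0.872) in replicates 1 to 3 and -0.89 in replicates 4 to 6. It was lost without replicate 5 alone (log2 ratio -0.27, adjusted p = 0.0502). The wild-type mean of Slc7a2 in replicate 5 was 533 CPM, against 257 to 387 CPM in the other replicates.

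The other 2 genes that fell were the lysosomal carrier Slc36a1 and Slc38a10. Slc36a1 had wild-type medians, in the order ZT2 to ZT22 and with the range over 36 libraries, of 24.4, 21.7, 21.5, 18.4, 19.7 and 20.03 CPM (range 14.2 to 40.1), and Bmal1-/- medians of 19.9, 19.3, 19.9, 20.1, 18 and 17.3 CPM (range 10.3 to 25.7). The libraries of both genotypes overlapped, and the log2 ratio was -0.33 (SE 0.071, adjusted p = 9.62e-05). At ZT14 the fitted log2 difference was only -0.03 and the Bmal1-/- median was the higher one. Slc38a10 had wild-type medians of 45.1, 46.5, 45.2, 44, 43.1 and 50.1 CPM (range 27.5 to 67.4) and Bmal1-/- medians of 42.1, 35.5, 40.6, 47.8, 36.8 and 50.7 CPM (range 26.8 to 60.6). Its log2 ratio was -0.24 (SE 0.068, adjusted p = 0.00258), with overlapping libraries.

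Of the 6 genes that rose, Slc1a4 stood at 4.62 ± 2.59 CPM in wild-type and 10.6 ± 4.64 CPM in Bmal1-/- total RNA. Its log2 ratio was 1.15 (SE 0.13, adjusted p = 4.68e-11), and it was higher at 6 of 6 times and in every alternative fit. Slc7a4, a Slc7 member without a settled substrate, gave 0.795 ± 0.39 CPM and 2.09 ± 1.02 CPM, a log2 ratio of 1.32. It passed the minimum of 10 counts only through the Bmal1-/- libraries, so it could enter the test only if it was higher there, and its p is not given. The betaine carrier Slc6a12 had wild-type medians of 19.3, 18.1, 18.9, 19.3, 17.4 and 20.2 CPM (range 4.89 to 26.1), and Bmal1-/- medians of 22.9, 24.9, 26.2, 25.7, 27.9 and 23.4 CPM (range 14.8 to 35.2). Its log2 ratio was 0.28 (SE 0.072, adjusted p = 9.88e-04), higher at 6 of 6 times.

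The taurine carrier Slc6a6 had wild-type medians of 88.5, 87.8, 78, 70.2, 72.9 and 85.7 CPM (range 41.3 to 113), and Bmal1-/- medians of 102, 100.0, 94.5, 100.2, 94.8 and 99.4 CPM (range 44.6 to 136), for a log2 ratio of 0.22 (SE 0.080, adjusted p = 0.022). The heavy chain Slc3a1 had wild-type medians of 16.4, 16.5, 11.4, 10.2, 10.9 and 16 CPM (range 5.84 to 26.3), and Bmal1-/- medians of 22, 21.7, 22.2, 18.4, 19.2 and 14.1 CPM (range 8.89 to 50.2), for a log2 ratio of 0.41 (SE 0.13, adjusted p = 0.00826). Slc7a6os, no carrier, had wild-type medians of 8.84, 10.7, 9.25, 9.55, 8.35 and 8.58 CPM (range 6.03 to 15.8), and Bmal1-/- medians of 10.7, 10.1, 9.92, 10.2, 13.2 and 12.6 CPM (range 5.8 to 18.2), for a log2 ratio of 0.20 (SE 0.077, adjusted p = 0.0287). These 3 rises were small, overlapped between the genotypes and each failed in some leave-one-out fit. This happened without replicate 2, 3 or 6 for Slc6a6 (adjusted p from 0.13 to 0.166), without replicate 4 or 6 for Slc3a1 (0.0577 to 0.138) and without replicate 1, 3, 4 or 6 for Slc7a6os (0.0887 to 0.174). Slc3a1 had Bmal1-/- means of 12.8, 13.2, 18.4, 20.8, 24.6 and 30.4 CPM in replicates 1 to 6. Among abundant carriers that did not pass, Slc38a4 had a log2 ratio of -0.05 (SE 0.045, adjusted p = 0.332), Slc6a13 one of -0.06 (SE 0.073, adjusted p = 0.541), Slc38a2 one of -0.007 (SE 0.081, adjusted p = 0.955) and Slc3a2 one of -0.13 (SE 0.055, adjusted p = 0.0567).

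**Figure D2:**
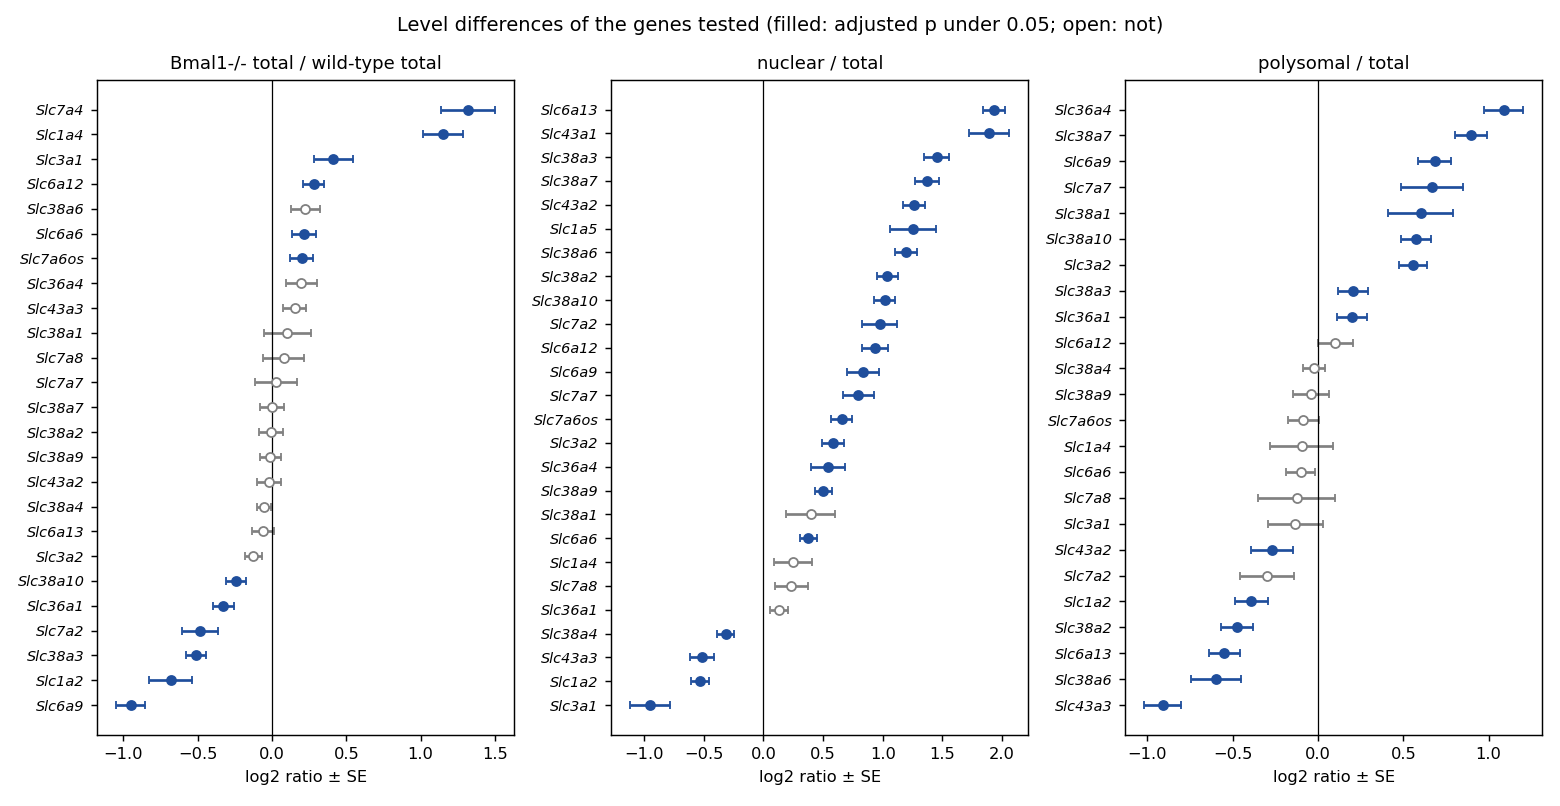
Log2 ratio (point) and SE (whisker) of each gene tested in Bmal1-/- against wild-type total RNA, and in nuclear and polysomal against total wild-type RNA; filled points passed an adjusted p of 0.05. In the first panel the points spread to both sides of 0, from -0.95 for Slc6a9 to 1.15 for Slc1a4, beside 1.32 for Slc7a4, which entered only through the Bmal1-/- libraries. In the nuclear panel 18 of the 26 points are filled to the right of 0, of which Slc43a1 and Slc1a5 entered only through nuclear libraries.

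In nuclear against total RNA of wild-type mice 22 of 26 members passed, near the 83.8% of all genes tested, with 18 higher (41.6% of all genes) and 4 lower (42.1%). Slc43a1 and Slc1a5 reached the count minimum only through nuclear libraries and are among the 18. Of the 24 that reached it in both series, 16 were higher and 4 lower, with a median log2 ratio of 0.62, against -0.01 over all genes tested. Without the libraries with Xist counts 25 of 26 passed, the added ones being Slc36a1, Slc38a1 and Slc7a8. These values compare shares of each fraction, not amounts per cell. Slc6a13, the GABA and taurine carrier, rose most, from 141 ± 26.3 CPM in total to 559.8 ± 155 CPM in nuclear RNA, with a log2 ratio of 1.93 (SE 0.092, adjusted p = 8.25e-31). This level was not split by polyadenylation site. In the usage test described below, its site at 88.8% of the annotated gene gained share in nuclear RNA (log2 ratio 1.89, adjusted p = 1.26e-22). Its most 3′ site lost share there (-0.77, adjusted p = 9.42e-15). Slc43a1, a carrier of large neutral amino acids, gave 1.14 ± 0.596 CPM and 4.65 ± 2.53 CPM and a log2 ratio of 1.89, with no p given since it entered only through nuclear libraries. Slc38a3 gave 842 ± 382 CPM in nuclear RNA and a log2 ratio of 1.45 (SE 0.10, adjusted p = 3.96e-21), and the lysosomal glutamine carrier Slc38a7 24.6 ± 6.75 CPM and 1.37 (SE 0.10, adjusted p = 8.17e-21). All 4 were higher at 6 of 6 times.

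The 4 genes that fell in nuclear RNA were lower at 6 of 6 times, except that without the libraries with Xist counts Slc43a3 had a log2 difference of 0.04 at ZT22. Slc3a1 gave a log2 ratio of -0.95 (SE 0.17, adjusted p = 6.26e-07), Slc1a2 of -0.53 (SE 0.078, adjusted p = 4.94e-09), Slc43a3 of -0.52 (SE 0.10, adjusted p = 6.43e-06) and Slc38a4 of -0.32 (SE 0.071, adjusted p = 4.15e-05). Slc3a1 fell from 14.3 ± 5.86 CPM in total to 7.69 ± 4.97 CPM in nuclear RNA. The most abundant carrier of total RNA, Slc38a4, stood at 660.1 ± 150.2 CPM in nuclear RNA, below Slc38a3 and Slc7a2, which gave 763 ± 468 CPM. The means of these carriers thus stood in another order in nuclear than in total RNA, within SDs that overlapped. The nuclear level of Slc7a2 was not split by polyadenylation site. Its site at 67.5% of the annotated gene, described below, held a larger share in nuclear RNA (log2 ratio 2.48). The order of Slc7a2 and Slc38a4 is therefore not shown for their most 3′ ends.

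In polysomal against total RNA 15 of 24 members passed, against 76% of all genes tested, with 9 higher (38.8%) and 6 lower (37.2%). The median log2 ratio was -0.06 over the 24 and 0.02 over all genes tested. Slc36a4, a proton-coupled carrier, rose most, from 3.91 ± 1.19 CPM to 8.78 ± 3.23 CPM, with 1.09 (SE 0.12, adjusted p = 1.73e-13). Slc38a7 had a log2 ratio of 0.89 (SE 0.095, adjusted p = 1.80e-13), Slc6a9 of 0.69 (SE 0.096, adjusted p = 2.31e-09) and Slc38a10 of 0.58 (SE 0.088, adjusted p = 2.33e-08). The largest falls were those of Slc43a3 at -0.91 (SE 0.11, adjusted p = 7.30e-12), Slc38a6 at -0.60 (SE 0.15, adjusted p = 2.36e-04), Slc6a13 at -0.55 (SE 0.091, adjusted p = 1.71e-07) and Slc38a2 at -0.47 (SE 0.092, adjusted p = 4.43e-06). Each of these 8 had the same direction at 6 of 6 times. Polysomal replicate 1, the one with lung markers, took part in these values: without its 6 libraries 13 members were called, and Slc38a3 and Slc43a2 no longer passed.

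Slc38a7 rose in both fractions and Slc43a3 fell in both, each with its own test against the same total RNA libraries. Slc6a13 rose in nuclear and fell in polysomal RNA, as did Slc38a2, whose nuclear log2 ratio was 1.04 (SE 0.090, adjusted p = 2.22e-17). Slc38a2 stood at 154 ± 65.6 CPM in nuclear, 70.8 ± 19.8 CPM in total and 52.9 ± 18 CPM in polysomal RNA. These values are per gene and were not split by polyadenylation site. In nuclear RNA the share of its most 3′ site fell (log2 ratio -1.15), while that of a site near its start rose (2.33), as described below. The nuclear rise is therefore not shown for the most 3′ end of Slc38a2. The taurine carrier Slc6a6 had nuclear medians of 98.8, 119.6, 98.1, 112, 107 and 96.4 CPM (range 59.4 to 183) and polysomal ones of 91.5, 78.5, 83, 75, 66.7 and 67.7 CPM (range 43 to 117). It passed in nuclear RNA, with a log2 ratio of 0.37 (SE 0.072, adjusted p = 3.29e-06), and not in polysomal RNA, with -0.10 (SE 0.085, adjusted p = 0.277).

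Rhythm was tested in each fraction on its own. In nuclear RNA 1 of 26 members passed, against 5.99% of all genes, and 3 passed without the nuclear library with Xist counts, the added ones being Slc7a2 (adjusted p = 0.0362) and Slc43a1 (adjusted p = 0.028). In polysomal RNA 5 of 24 passed, against 7.9% of all genes, and 4 passed without polysomal replicate 1. Slc38a3 passed in both. Its nuclear medians were 656, 889, 1365, 769.9, 619.9 and 503 CPM (range 356 to 1883), and its rhythm there was 1.38 (SE 0.23) with the peak at ZT9.8 ± 0.7 h (adjusted p = 2.59e-04). Its polysomal medians were 239.9, 351, 435, 529.5, 346 and 211 CPM (range 173 to 638), with a rhythm of 1.13 (SE 0.18) with the peak at ZT13.1 ± 0.6 h (adjusted p = 1.58e-04). The fitted peak of Slc38a3 thus fell at ZT9.8 in nuclear, ZT10.6 in total and ZT13.1 in polysomal RNA. The test of a different rhythm did not pass for either fraction: adjusted p was 0.9997 for nuclear and 0.72 (unadjusted p = 0.00989) for polysomal against total RNA.

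Slc7a2 had nuclear medians of 592, 1008, 1146, 449.7, 473 and 499 CPM (range 192 to 2029) and polysomal ones of 233, 375, 420.3, 243, 121 and 184 CPM (range 72.9 to 1275). Its polysomal rhythm was 1.60 (SE 0.36) with the peak at ZT8.9 ± 0.9 h (adjusted p = 0.00893), and its nuclear one, at 0.90 (SE 0.32) with the peak at ZT7.6 ± 1.3 h (adjusted p = 0.161), did not pass. Slc6a9 had nuclear medians of 35.6, 41.4, 54.7, 71.7, 49.2 and 42.8 CPM (range 18 to 98.7) and polysomal ones of 36.8, 41.4, 47.6, 67.5, 63.6 and 39.3 CPM (range 19 to 93.3), with a polysomal rhythm of 1.12 (SE 0.19) with the peak at ZT15.7 ± 0.7 h (adjusted p = 3.06e-04). Slc1a2 had nuclear medians of 59.7, 114, 100.3, 91.1, 98.9 and 71.9 CPM (range 37.1 to 153) and polysomal ones of 72.8, 99.1, 122, 118, 89 and 67.3 CPM (range 48.4 to 272), with a polysomal rhythm of 0.93 (SE 0.22) with the peak at ZT11.6 ± 0.9 h (adjusted p = 0.0132). In each of these genes the highest polysomal median stood at ZT10 or ZT14. Slc38a2 had nuclear medians of 111, 149, 181, 135, 139 and 129.6 CPM (range 56.9 to 328) and polysomal ones of 42.2, 64.8, 72, 52.4, 38.8 and 42.8 CPM (range 23.3 to 99.2), with a polysomal rhythm of 0.76 (SE 0.21) with the peak at ZT9.6 ± 1.1 h (adjusted p = 0.0396). Leaving out replicates ended 3 of these polysomal calls: Slc38a2 without replicate 1, 3, 5 or 6 (adjusted p from 0.0746 to 0.228), Slc1a2 without 2 or 6 (0.0904 to 0.0908) and Slc7a2 without 3 or 6 (0.0627 to 0.0978).

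**Figure D3:**
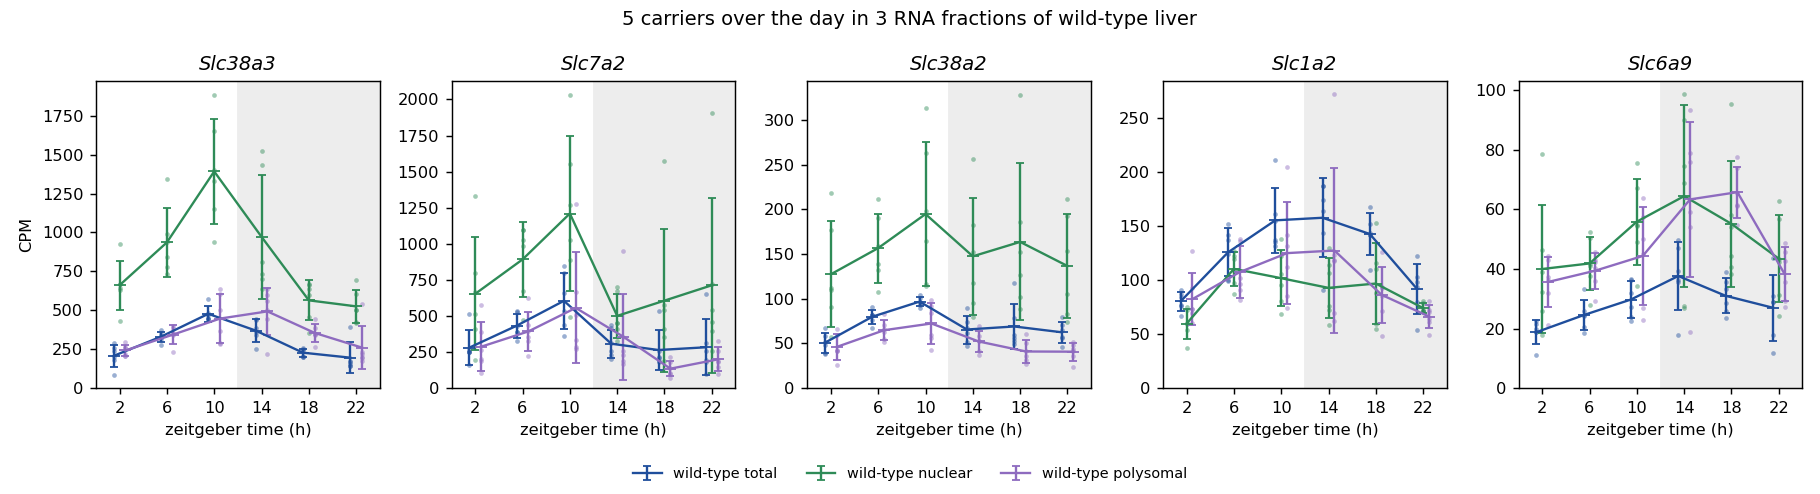
CPM of 5 carrier genes at 6 zeitgeber times (h; grey, dark phase) in total (blue), nuclear (green) and polysomal (purple) RNA of wild-type liver, with 1 point per library, the mean as a bar and the SD as whiskers, n = 6. Slc38a3 stands highest in nuclear RNA at every time, with its highest median of 1365 CPM at ZT10, and the spread between nuclear libraries is wide in Slc7a2, where single libraries reach 1907 CPM at ZT22.

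The other members with a rhythm or a level call had no rhythm that passed in the fractions. Slc43a3 had nuclear medians of 11.2, 11.8, 14.4, 15, 12.3 and 11.3 CPM (range 3.01 to 22.8) and polysomal ones of 10.4, 10.4, 12.1, 10.7, 8.45 and 7.28 CPM (range 1.05 to 18). Slc1a4 had nuclear medians of 7.54, 5.92, 3.56, 3.23, 4.84 and 6.01 CPM (range 0.69 to 14.8) and polysomal ones of 6.19, 6.08, 2.67, 2.14, 2.72 and 3.59 CPM (range 0.876 to 21.5). The medians of Slc43a3 lay below those of total RNA at every time in both fractions, and those of Slc1a4 on both sides of them. Slc36a1 had nuclear medians of 27.7, 25.6, 24.1, 23.3, 24.8 and 27.1 CPM (range 10.2 to 38.3) and polysomal ones of 29.7, 32.4, 32.9, 24.6, 20.9 and 25.9 CPM (range 9.45 to 47.5). Slc38a10 had nuclear medians of 116, 87.2, 89.1, 96.8, 90.03 and 108 CPM (range 57.7 to 162) and polysomal ones of 74.2, 64.1, 59.8, 71.7, 83.1 and 59.8 CPM (range 49.95 to 129.9). Slc38a10 thus lay above its total RNA level in both fractions, while Slc36a1 had a log2 ratio of 0.20 (SE 0.089, adjusted p = 0.0368) in polysomal RNA and of 0.13 (SE 0.076, adjusted p = 0.106) in nuclear RNA, where it passed without the libraries with Xist counts (0.20, adjusted p = 0.0105). The polysomal call of Slc36a1 was lost without replicate 2, 3, 5 or 6 (adjusted p from 0.0719 to 0.28). Slc6a12 had nuclear medians of 39.4, 33.4, 34.5, 39.2, 30.1 and 38.1 CPM (range 13.8 to 82.7) and polysomal ones of 21.7, 20.3, 17.4, 23.5, 19.8 and 18.4 CPM (range 9.5 to 37.8). Slc3a1 had nuclear medians of 4.999, 3.79, 5.89, 6.31, 4.39 and 11.1 CPM (range 2.37 to 23.8) and polysomal ones of 14.5, 17.3, 12.7, 9.08, 8.29 and 10.1 CPM (range 2.55 to 43.3). The highest polysomal library of Slc3a1 was replicate 1 at ZT22, which also had Xist and lung marker counts. Slc7a6os had nuclear medians of 11.3, 20.6, 11.7, 14.3, 15.9 and 14.9 CPM (range 5.69 to 32.8) and polysomal ones of 7.8, 9.19, 8.11, 8.68, 9.8 and 9.39 CPM (range 3.48 to 17.6). The tests of a different rhythm in a fraction called 0 of 26 members for nuclear and 0 of 24 for polysomal RNA, against 0% of all genes tested in each; at an unadjusted p under 0.05 they found 0 and 1, and DESeq2 called 0 and 0.

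A gene can end its transcripts at several polyadenylation sites, and the choice sets the length of the last exon or ends the transcript early. Of the sites that the authors kept after their filter, 68 were assigned to 23 of these genes, and 14 genes had 2 or more. Usage is the share of a gene's site counts that a site holds, so the shares of a gene move against each other and its sites are not independent. In wild-type total RNA 4 of 26 sites tested changed their usage over the day, in 2 of 8 genes, against 0.351% of all sites tested. They belonged to Slc38a4 and Slc1a2. In Bmal1-/- total RNA 0 of 29 sites passed, against 0% of all sites, and 0 had an unadjusted p under 0.05. No second tool was run for rhythm in usage.

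Slc38a4, whose total level had no rhythm that passed in any series, ended at a site at chr15:96994809-96995010 (positions as in the authors' list, on GRCm38/mm10; minus strand), the most 3′ of its sites. The other main site lay 1938 bases upstream, at chr15:96996747-96997035. In wild-type total RNA the most 3′ site held a median (lowest to highest) of 28.3% (20.5 to 33) at ZT2, 33.8% (30.7 to 37.7) at ZT6, 37.5% (29.8 to 46.7) at ZT10, 23.4% (20.6 to 29) at ZT14, 24.2% (19.7 to 25) at ZT18 and 24.3% (19.1 to 27) at ZT22. Its lowest library at ZT6, 30.7%, lay above all libraries from ZT14 to ZT22. The rhythm of its usage had a log2 peak-to-trough difference of 0.72 (SE 0.099) with the peak at ZT7.6 ± 0.5 h (adjusted p = 0.000163). The upstream site held 71.4% (66.6 to 79) at ZT2, 65.7% (62 to 68.6) at ZT6, 62% (52.9 to 69.8) at ZT10, 76% (70.4 to 78.7) at ZT14, 75.4% (74.7 to 79.7) at ZT18 and 75.4% (72.4 to 80.3) at ZT22, with a rhythm of 0.30 (SE 0.044) that peaked at ZT19.7 ± 0.6 h (adjusted p = 0.00107). The gene had a mean of 6080.1 site counts per wild-type library, so these shares rest on high counts.

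In Bmal1-/- total RNA the most 3′ site of Slc38a4 held 20.7% (13.9 to 24.6) at ZT2, 22.2% (11.9 to 28.9) at ZT6, 23.4% (16.8 to 24.5) at ZT10, 23.5% (22.7 to 24.4) at ZT14, 22.4% (20.4 to 25.7) at ZT18 and 23.6% (17.7 to 28) at ZT22, with medians that stayed within 20.7% to 23.6%. The upstream site had medians of 78.4%, 77.2%, 76.1%, 75.9%, 76.9% and 76.1% from ZT2 to ZT22. The difference in usage rhythm between the genotypes passed for both sites, with a log2 size of 0.82 (SE 0.15, adjusted p = 0.00823) for the most 3′ and 0.32 (SE 0.054, adjusted p = 0.00168) for the upstream site. They were the 2 of 27 sites called, against 0.0597% of all sites tested. The call of the most 3′ site was lost without replicate 1, 2, 3 or 6 (adjusted p from 0.0694 to 0.142). Over the day its usage was lower in Bmal1-/- libraries, 22.3 ± 3.5% against 28.4 ± 6.77% (SD, n = 36), with a log2 ratio of -0.32 (SE 0.053, adjusted p = 6.71e-06) and a lower mean at 6 of 6 times.

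The fractions gave the same gene other shares. In polysomal RNA the most 3′ site of Slc38a4 held 38.8% (25.1 to 51.3) at ZT2, 43.3% (37.6 to 51.3) at ZT6, 52% (40.5 to 60.4) at ZT10, 43% (35.5 to 60.3) at ZT14, 32% (26.8 to 39.7) at ZT18 and 33.4% (25 to 40.7) at ZT22, and its medians were above those of total RNA at all 6 times (log2 ratio 0.52, SE 0.053, adjusted p = 2.71e-13). Its usage rhythm there was 0.68 (SE 0.11) with the peak at ZT9.5 ± 0.6 h (adjusted p = 0.0176), and that of the upstream site, with medians of 61%, 56.3%, 47.2%, 56.1%, 67.8% and 66%, was 0.49 (SE 0.085) at ZT21.7 ± 0.7 h (adjusted p = 0.0313). These were the 2 of 20 sites called in polysomal RNA, against 0.028% of all sites. Both calls were fragile: without the libraries with Xist counts 1 remained, the most 3′ site was lost without replicate 1, 2, 3, 4 or 6 (adjusted p from 0.0571 to 0.276) and the upstream site on leaving out each of the 6 in turn (adjusted p from 0.0622 to 0.44). In nuclear RNA the most 3′ site held 14.4% (12.9 to 28.3) at ZT2, 24% (19.9 to 41.3) at ZT6, 24.6% (16.5 to 31.5) at ZT10, 17.9% (11.5 to 29.5) at ZT14, 12.1% (9.2 to 25.4) at ZT18 and 12.7% (7.77 to 22.4) at ZT22, and the upstream site medians of 84.2%, 73.7%, 73%, 80.8%, 86.4% and 86.1%. Their nuclear rhythm had an unadjusted p of 0.00088 and 0.00107 and did not pass (adjusted p = 0.514 for both). In nuclear RNA 0 of 22 sites passed, against 0.049% of all sites, and 7 had an unadjusted p under 0.05.

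Slc1a2 kept 10 sites, all in the last 10% of the annotated gene. Its most 3′ site, chr2:102790574-102790783 on the plus strand, held 33.6% (26.4 to 35.3) at ZT2, 38.6% (31.4 to 49) at ZT6, 43.2% (37.8 to 50.1) at ZT10, 41.1% (37.1 to 44.5) at ZT14, 38.3% (36.2 to 45.9) at ZT18 and 27.8% (20.9 to 32.2) at ZT22 in wild-type total RNA. The rhythm of this share was 0.58 (SE 0.093) with the peak at ZT11.3 ± 0.6 h (adjusted p = 0.00222), and all libraries at ZT10 and ZT14 lay above all those at ZT2 and ZT22. A site 8995 bases upstream, chr2:102781691-102781788, held 8.84% (5.6 to 18.2) at ZT2, 6.92% (3.24 to 9.09) at ZT6, 5.7% (4.11 to 7.67) at ZT10, 4.84% (3.66 to 6.31) at ZT14, 7.87% (4.84 to 9.48) at ZT18 and 10.8% (7.72 to 13.3) at ZT22. Its rhythm was 1.07 (SE 0.20) with the peak at ZT23.8 ± 0.7 h (adjusted p = 0.0157), and was lost without replicate 3, 4, 5 or 6 (adjusted p from 0.0609 to 0.0936). That of the most 3′ site was lost without replicate 6 (adjusted p = 0.055).

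In Bmal1-/- total RNA the most 3′ site of Slc1a2 held 25.8% (16.3 to 38.3) at ZT2, 30.1% (26.3 to 38) at ZT6, 28.1% (22 to 38) at ZT10, 28.5% (23.3 to 32.9) at ZT14, 33.7% (26.5 to 50) at ZT18 and 29.3% (22.6 to 41.4) at ZT22, and the upstream site medians of 11.9%, 9.77%, 7.88%, 10.3%, 7.004% and 10.1%. Over the day the share of the most 3′ site was 29.9 ± 6.37% against 37.2 ± 6.93% in wild type, a log2 ratio of -0.30 (SE 0.056, adjusted p = 9.74e-05), with a lower mean at all times but 1. In nuclear RNA this site held medians of 9.03%, 9.93%, 15.3%, 14.2%, 16.6% and 11.5%, and in polysomal RNA of 26.2%, 30.8%, 34%, 37.4%, 36.8% and 25.1%. The upstream site had nuclear medians of 21.5%, 10.2%, 13.5%, 13.1%, 13.6% and 19.9%, and polysomal medians of 18.9%, 14.7%, 11.5%, 12.9%, 11% and 14.7%. The share of the most 3′ end was thus lowest in nuclear RNA.

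**Figure D4:**
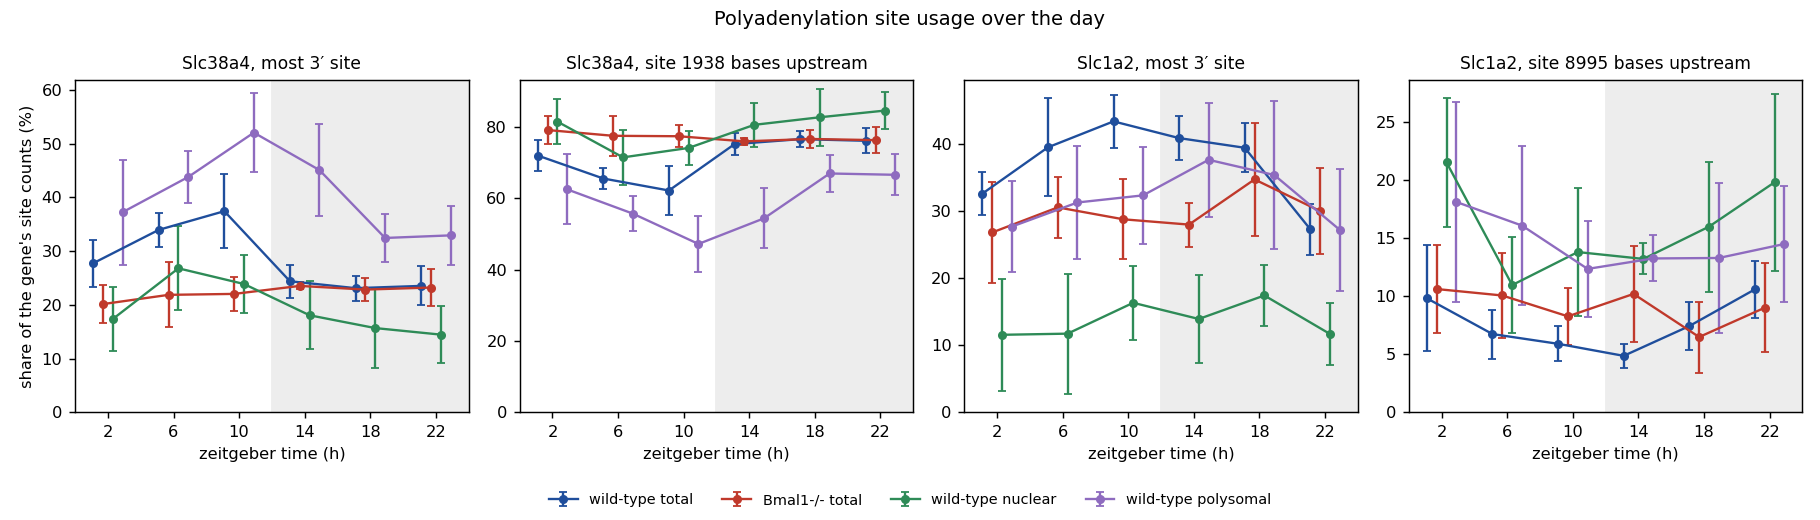
Share (%) of the gene's site counts held by 2 sites of Slc38a4 and 2 of Slc1a2 at 6 zeitgeber times (h; grey, dark phase), as the mean of 6 libraries with the SD, in wild-type total (blue), nuclear (green) and polysomal (purple) and Bmal1-/- total (red) RNA. The most 3′ site of Slc38a4 has its highest wild-type total median, 37.5%, at ZT10 and stays between 20.7% and 23.6% in the medians of Bmal1-/- libraries.

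In all, 4 of 27 sites in 3 of 8 genes changed their usage in Bmal1-/- against wild-type total RNA, against 9.04% of all sites tested, with 1 higher (4.86%) and 3 lower (4.17%). Beside the most 3′ sites of Slc38a4 and Slc1a2 and the upstream site of Slc38a4, which rose with a log2 ratio of 0.12 (SE 0.018, adjusted p = 2.36e-06), this was a site of the taurine carrier Slc6a6 at chr6:91758634-91758724. It held 51.7% (48.7 to 84.3) at ZT2, 52.5% (49.1 to 62.8) at ZT6, 54.3% (43 to 58.1) at ZT10, 53.7% (45.6 to 59.9) at ZT14, 53.7% (48.2 to 59.4) at ZT18 and 51.9% (38.9 to 57.3) at ZT22 in wild-type libraries. In Bmal1-/- libraries it held 50.7% (27.1 to 52.2) at ZT2, 46.7% (19.7 to 52.9) at ZT6, 49.5% (44.4 to 56.3) at ZT10, 50.2% (47.5 to 52.9) at ZT14, 48% (44.7 to 51.9) at ZT18 and 47.5% (43.7 to 57.8) at ZT22. The libraries overlapped at every time, the log2 ratio was -0.17 (SE 0.050, adjusted p = 0.0167), and the call was lost without replicate 4 or 6 (adjusted p from 0.0593 to 0.221). With edgeR's splicing test in place of the usage fit, 0 of these sites were called.

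More sites passed between RNA fractions than between genotypes, as they did among all sites tested. In nuclear against total RNA 26 of 28 sites passed, against 78.7% of all sites, with 14 higher (35.7%) and 12 lower (43%). In polysomal against total RNA 23 of 27 passed, against 70.5%, with 10 higher (33.3%) and 13 lower (37.2%). A site entered these tests when it held 5% of its gene's counts over both series together. Of the nuclear calls, 3 of the 14 higher sites held 5% only in nuclear and 3 of the 12 lower ones only in total RNA, and of the polysomal calls 2 of the 10 and 3 of the 13 only in 1 of the 2 series, the one where they were high. Sites that entered this way had to differ, so they are given as values with no p. Without the libraries with Xist counts 23 of 27 sites were called in nuclear RNA: a site of Slc43a3 at chr2:84958489-84958512 and one of Slc1a2 at chr2:102784460-102784484 no longer passed (adjusted p = 0.0584 and 0.0516), and the site of Slc6a6 described next did not enter. Without polysomal replicate 1, 25 of 27 were called in polysomal RNA. A site that entered only through nuclear libraries lay at chr6:91741072-91741085 in Slc6a6, 76.0% of the way along the annotated gene. It held 0.724 ± 0.504% of its counts in total and 12.8 ± 6.16% (SD, n = 36) in nuclear RNA. In Slc7a2 a site at chr8:40902623-40902646, 67.5% of the way along the gene, held 4.77 ± 2.51% in total and 26.2 ± 10.8% in nuclear RNA, and it too entered only through the nuclear libraries. Both sites lie well before the annotated gene end. The sequences around the sites were not examined, for example for stretches rich in A. Whether these sites, or the one near the start of Slc38a2 described next, are transcript ends is thus not settled.

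In Slc38a2 a site at chr15:96699598-96699640, only 109 bases from the annotated start, held 11.1 ± 7.05% of the site counts in total, 54.2 ± 18.9% in nuclear and 25.6 ± 12.6% in polysomal RNA. Its log2 ratio was 2.33 (SE 0.19, adjusted p = 7.48e-18) in nuclear and 1.20 (SE 0.22, adjusted p = 3.02e-06) in polysomal RNA. The most 3′ site of Slc38a2, chr15:96687389-96687563, held 83.8 ± 6.68%, 40.4 ± 18% and 64.9 ± 12.5% of the counts in the same order. Nuclear RNA was thus the fraction in which the site near the start of Slc38a2 held more counts than the one at its end. The nuclear rise in the level of Slc38a2, given above, was not split between these sites. In Slc1a2 a site at chr2:102790342-102790363, close to its most 3′ end, held 2.54 ± 1.12% in total, 16.4 ± 8.18% in nuclear and 10.5 ± 5.86% in polysomal RNA, and entered only through the fractions.

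In polysomal RNA the site of Slc6a6 that held most counts in total RNA, chr6:91758634-91758724, fell from 53.7 ± 7.14% to 15.4 ± 4.93% (log2 ratio -1.81, SE 0.088, adjusted p = 1.75e-27). A site upstream of it, chr6:91755446-91755515, rose from 25.1 ± 8.16% to 58.6 ± 10.9% (1.22, SE 0.091, adjusted p = 8.73e-19). The upstream end of Slc6a6 was thus the main one in polysomal RNA, at a total level of the gene that did not pass the test. The shift was not particular to polysomal RNA. In the nuclear usage test the same 2 sites had log2 ratios of -1.06 (adjusted p = 1.66e-19) and 0.65 (adjusted p = 1.53e-08). The Slc7a2 site at chr8:40902623-40902646 held 13.4 ± 7.2% in polysomal RNA, through which alone it entered that test. A site of Slc43a3 at chr2:84958489-84958512 rose from 11.8 ± 11.2% to 29 ± 18.9% (1.36, SE 0.22, adjusted p = 1.49e-07). Each named site moved in the same direction at 6 of 6 times, leaving aside the nuclear ratios of these 2 sites of Slc6a6. Rhythm in usage differed from total RNA, by edgeR's test, at 0 of 28 sites in nuclear (0% of all sites, 0 at an unadjusted p under 0.05). It differed at 0 of 27 in polysomal RNA (0.0239%, 2 at an unadjusted p under 0.05).

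**Figure D5:**
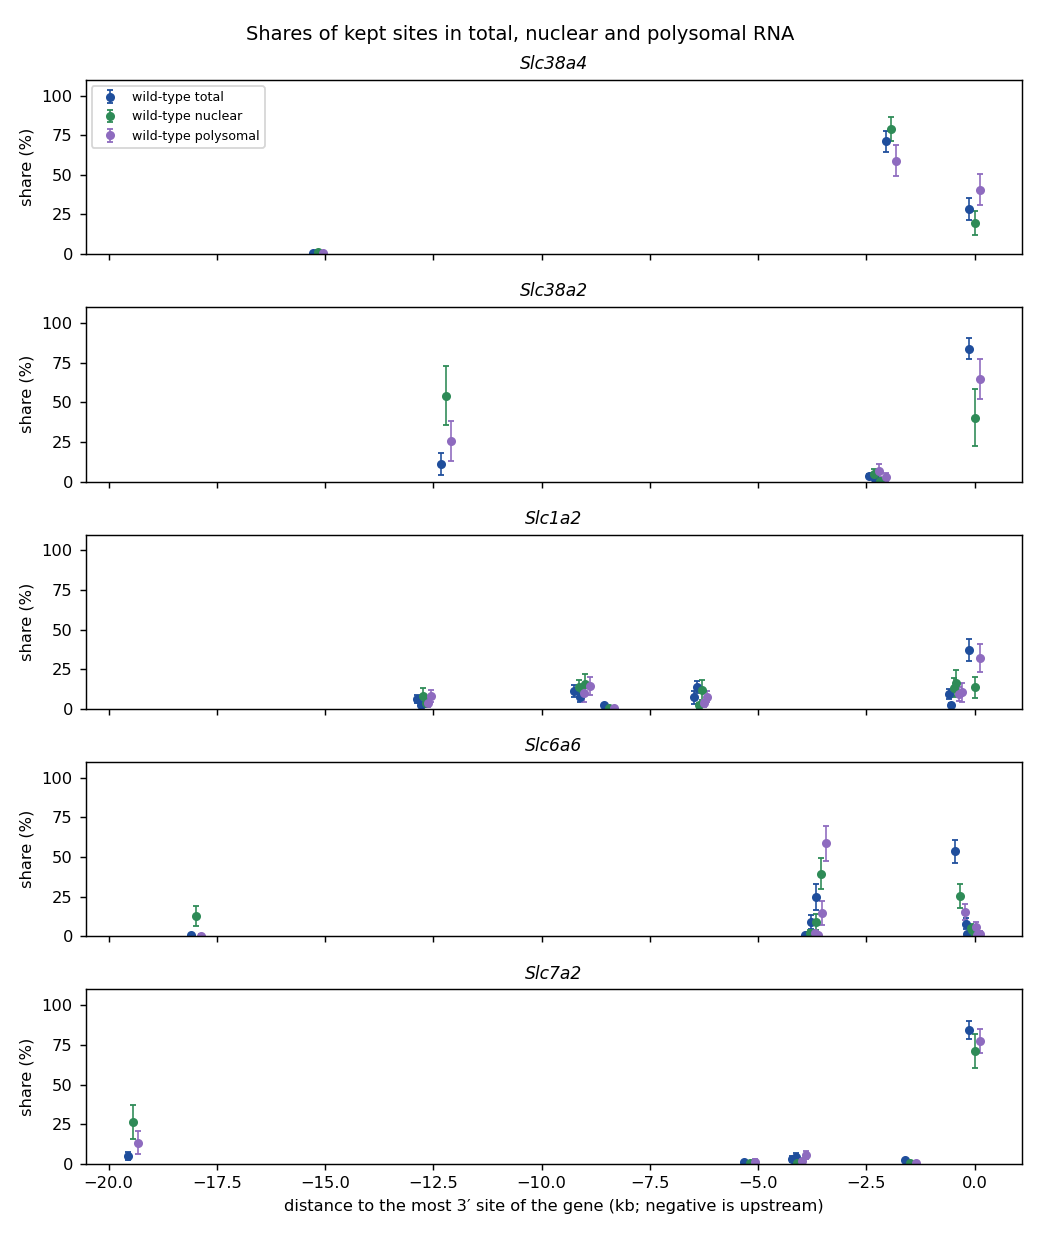
Share (%, mean with SD over 36 libraries) of each kept site of 5 carrier genes against its distance to the most 3′ site (kb; negative is upstream) in total (blue), nuclear (green) and polysomal (purple) RNA of wild-type liver; the 3 points of a site are drawn slightly apart. The site near the start of Slc38a2, at the left of its panel, has a mean of 11.1% in total and 54.2% in nuclear RNA.

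Genes that work with these carriers were read from the same tests. Of 19 other amino acid carriers in the table (members of other solute carrier families), 13 were tested in wild-type total RNA and 3 passed for rhythm (18.9% of all genes tested did): Slc25a13, the mitochondrial aspartate and glutamate exchanger, Slc25a44, a mitochondrial carrier of branched-chain amino acids, and Slc15a3. In Bmal1-/- against wild-type total RNA 4 of 13 were higher (22.4% of all genes) and 2 lower (21.7%), and Slc25a44 differed in rhythm. Of 30 genes of the amino acid sensing path to mTORC1, 28 were tested and 5 passed for rhythm in wild-type total RNA, close to the 18.9% of all genes: Mtor itself, Sesn3, and Flcn, Fnip1 and Fnip2, whose products form the folliculin complex on the lysosome. Flcn had a log2 peak-to-trough difference of 1.25 with the peak at ZT7.1 ± 0.6 h (adjusted p = 6.72e-06), Fnip1 of 0.93 at ZT8.2 ± 0.6 h (1.05e-05) and Fnip2 of 1.24 at ZT9.3 ± 0.6 h (3.64e-05).

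These 3 of the 28 also differed in rhythm between the genotypes, against 5.18% of all genes. In level 2 of the 28 were higher (22.4% of all genes) and 8 lower (21.7%) in Bmal1-/- libraries. Among 7 regulators and partners of the carriers, 6 were tested, of which 2 passed for rhythm in wild-type total RNA (18.9% of all genes tested did). They were Sgk1, a kinase, and Nedd4l, a ubiquitin ligase, the latter with 1.19 at ZT21.6 ± 0.5 h (adjusted p = 1.22e-05). Both were higher in Bmal1-/- libraries, with log2 ratios of 0.78 (SE 0.14, adjusted p = 2.83e-06) and 0.48 (SE 0.065, adjusted p = 4.52e-09). Of the 6 genes, 2 were thus higher (22.4% of all genes) and 1 lower (21.7%). The lower one was Arl6ip1, with a log2 ratio of -0.15 (SE 0.047, adjusted p = 0.00873). In the nuclear fraction 11 of 28 mTORC1 genes were higher (41.6% of all genes) and 14 lower (42.1%) than in total RNA, and of 14 other carriers 3 were higher and 4 lower.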

How the data were processed

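Livers of male wild-type and Bmal1-/- mice were measured with Lexogen QuantSeq 3′ mRNA libraries, per the labels' protocols. The authors deposited raw counts per gene and per polyadenylation site, with 1 column per library, and a filtered site list. Per the submitters' processing notes STAR 2.4.2a, edgeR and HOMER were used with mm10 and GRCm38.p5, with no role given; whether counting used the strand is not given in the sources used here. The deposited counts were used as they are, and CPM is a gene's count scaled to the library's total of gene counts. The members and the gene lists were chosen with earlier results of these data known.

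Tests used R 4.3.3 with edgeR 4.0.16 (robust quasi-likelihood F test) and Benjamini-Hochberg adjustment at 0.05. Gene tests used TMM and covered every gene that averaged 10 counts or more in the fit. Site tests had the minimums given below and none for the site's own mean count. Fold changes of genes are between TMM-scaled libraries. Rhythm is a cosine and sine of 24 h, and its size the fitted log2 difference between peak and trough. Levels are contrasts of the mean over 6 times, fitted to the 72 libraries of 2 series. Site usage had the log of the gene's site counts plus 0.5 as offset, for sites with at least 5% of their gene in genes with a mean of 50 site counts and at least 2 such sites. Sites were assigned by RefSeq GRCm38.p6 gene positions, up to 1000 bases past the end. Strand came from the promoter table, or from the site counts for 2354 genes, a rule that was right in 92.8% of 7843 genes of known strand. Within groups, 0 of 360 pairs of libraries were identical. The scripts were tested on simulated data. Alternatives were DESeq2 1.42.0, median-ratio size factors, no count minimum, all 4 series in 1 fit and a replicate block. For nuclear against total RNA a block of replicate number and time was fitted too. Others were sets of 3 replicates, 1 replicate left out, other site minimums and edgeR's splicing test. Chosen after seeing the data were the fits without the 4 libraries with Xist counts or without the polysomal library highest in pancreas markers. The tests of a difference in usage rhythm were also chosen then.

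Genes named are the 12 with the highest CPM in wild-type total RNA, those called for rhythm, rhythm difference or level in Bmal1-/- libraries, the 4 largest rises and falls in each fraction with 1 direction at all times, and sites by the same rule. A few others (such as Slc7a1, Slc7a5, Slc38a7, Slc38a9, the sites of Slc6a13 and the sites that pair with a named one) were added after their values were seen.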

Additional observations from a re-analysis of the deposited data

Results flagged for a closer look

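Within the 4 series and 6 times, 312 groups of 6 libraries were examined over 13 genes. In 36 groups, over 28 libraries, the highest or lowest library's gap to its nearest neighbour was more than 0.625 of the group's range. Chance alone would mark about 1 in 20 such groups if the values followed a normal distribution. CPM values need not do so, and the groups share libraries across the 13 genes. The 36 flags therefore cannot be set against that rate. Each value below is in CPM, with the median of the other 5 libraries of its group in parentheses. For Slc1a2, the libraries apart from the rest gave a high 272 (118) in polysomal replicate 2 at ZT14 and a high 211 (137) in wild-type total replicate 2 at ZT10. For Slc1a4, the libraries apart from the rest gave a low 2.96 (6.02) in nuclear replicate 4 at ZT6, a high 14.4 (3.15) in nuclear replicate 4 at ZT14, a high 12.8 (1.44) in polysomal replicate 3 at ZT14, a high 21.5 (2.9) in polysomal replicate 1 at ZT22 and a high 12.4 (3.56) in wild-type total replicate 4 at ZT14. For Slc36a1, the libraries apart from the rest gave a low 12.9 (23.6) in nuclear replicate 6 at ZT14 and a high 40.1 (23.8) in wild-type total replicate 4 at ZT2. For Slc38a10, the libraries apart from the rest gave a high 57.7 (40.3) in Bmal1-/- total replicate 5 at ZT10 and a high 122 (61.7) in polysomal replicate 1 at ZT6. For Slc38a2, the library apart from the rest gave a high 121 (56.3) in Bmal1-/- total replicate 4 at ZT2. For Slc38a3, the libraries apart from the rest gave a low 232 (356) in polysomal replicate 3 at ZT6, a high 538 (203) in polysomal replicate 1 at ZT22, a high 576 (449) in wild-type total replicate 5 at ZT10 and a high 394 (158) in wild-type total replicate 5 at ZT22. For Slc3a1, the libraries apart from the rest gave a high 14.6 (4.72) in nuclear replicate 2 at ZT2, a high 23.8 (11) in nuclear replicate 3 at ZT22 and a high 43.3 (8.03) in polysomal replicate 1 at ZT22. For Slc43a3, the libraries apart from the rest gave a high 22.8 (10.6) in nuclear replicate 6 at ZT2 and a high 19.3 (14.8) in wild-type total replicate 6 at ZT2. For Slc6a12, the libraries apart from the rest gave a low 15.3 (26.5) in Bmal1-/- total replicate 1 at ZT10, a low 14.8 (26.4) in Bmal1-/- total replicate 1 at ZT14, a low 14.2 (23.9) in polysomal replicate 2 at ZT14 and a low 4.89 (21.1) in wild-type total replicate 4 at ZT2. For Slc6a6, the library apart from the rest gave a low 49.9 (91.2) in wild-type total replicate 1 at ZT2. For Slc6a9, the libraries apart from the rest gave a high 21.9 (14.2) in Bmal1-/- total replicate 1 at ZT14, a high 95.3 (44.3) in nuclear replicate 2 at ZT18 and a low 11.1 (19.8) in wild-type total replicate 4 at ZT2. For Slc7a2, the libraries apart from the rest gave a high 1575 (407) in nuclear replicate 5 at ZT18, a high 1907 (457) in nuclear replicate 5 at ZT22, a high 951 (230.0) in polysomal replicate 2 at ZT14, a high 512 (251) in wild-type total replicate 2 at ZT2 and a high 536 (212) in wild-type total replicate 5 at ZT18. For Slc7a6os, the libraries apart from the rest gave a high 17.6 (6.55) in polysomal replicate 6 at ZT2 and a high 11.1 (8.83) in wild-type total replicate 2 at ZT2.

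Polysomal replicate 1 at ZT22, which accounts for the high values of Slc38a3, Slc1a4 and Slc3a1 there, is the polysomal library with Xist and lung marker counts, and wild-type total replicate 5 at ZT22, high in Slc38a3, and nuclear replicate 5 at ZT22, high in Slc7a2, are among the 4 libraries with Xist counts. Their part in these values was not tested.

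A difference between the genotypes in daily course passed the interaction test in edgeR for 2 genes and 2 sites. Slc38a3 had an adjusted p of 7.37e-06 and Slc7a2 one of 0.0149, with log2 sizes of 1.27 and 1.41. The most 3′ site of Slc38a4 had an adjusted p of 0.00823 for its usage and the site 1938 bases upstream one of 0.00168. These 2 sites share the counts of 1 gene, so they are 1 observation seen from both sides.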

How the results depend on the processing

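Counts of called members are given for each test, with the range over fits that leave out 1 replicate number. Rhythm in wild-type total RNA was called for 8 members, for 4 with all 4 series in 1 fit, 3 in replicates 4 to 6 and 5 to 8 leaving out 1 replicate. In nuclear RNA the call of 1 became 5 with no minimum count, 2 with a replicate block, 3 without the libraries with Xist counts and 0 in replicates 1 to 3, with 1 to 2 leaving out 1. In polysomal RNA 5 became 9 with no minimum count and 0 in replicates 1 to 3, with 2 to 5 leaving out 1. The level in Bmal1-/- against wild-type total RNA was called for 12 members, 7 in replicates 1 to 3, with 9 to 12 leaving out 1. The rhythm difference between the genotypes was called for 2, 1 with all 4 series in 1 fit, 3 with DESeq2, 3 with a replicate block and 0 in replicates 4 to 6, with 1 to 2 leaving out 1.

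Usage rhythm in wild-type total RNA was called at 4 sites, 6 with a replicate block and 1 in either set of 3 replicates, with 2 to 4 leaving out 1. In polysomal RNA 2 sites became 0 in either set of 3 replicates and 1 without the libraries with Xist counts, with 0 to 1 leaving out 1. Site usage in Bmal1-/- libraries was called at 4 sites, 8 with a replicate block, 2 in replicates 1 to 3, 8 in replicates 4 to 6 and 0 with the splicing test, with 3 to 6 leaving out 1. In nuclear RNA 26 sites became 16 in replicates 1 to 3, and in polysomal RNA 23 became 15 with a site share minimum of 10%. The difference in usage rhythm between the genotypes was called at 2 sites, 0 in replicates 4 to 6 and 1 to 2 leaving out 1.

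In replicates 1 to 3 the sign turned for Slc3a1 in Bmal1-/- libraries (log2 ratio -0.066), Slc38a1 in polysomal RNA (-0.23) and the site of Slc43a3 at chr2:84957855-84957914 in nuclear RNA (-0.0069). The cause was not tested. Of 2620 values under the alternatives, for genes and sites called in the test itself or, in rhythm tests, in any rhythm test, 2404 kept their direction and side of the threshold, 205 kept the direction and did not pass, 8 passed where the reported fit did not and 3 turned. Over all member genes and sites that a reported fit did not call, 72 of 5085 such values passed. Many of these alternatives hold fewer libraries. Same-numbered libraries deviated together in nuclear and total RNA (mean r 0.295, 34 of 36 pairs over 0.1), less in Bmal1-/- and wild type (0.066, 15 of 36) and not in polysomal and total RNA (-0.109, 0 of 36), so the numbers do not pair the samples throughout. The reported tests treat all libraries as unpaired, also those of nuclear against total RNA. There a block of replicate number and time was an alternative fit only. Over the remaining tests the replicate block left each count within 1.5 times.

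Low depth limits the members under 10 counts per library, which were not tested, and nuclear RNA, which had the lowest totals.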
